A study of Arabidopsis thaliana with 4 samples.

Results

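Vegetative storage protein genes and other output genes of the jasmonate response were followed in leaves of Arabidopsis thaliana transformed with the wheat kinase gene TaSK5. The set held 8 of the 21500 genes on the array. They were VSP1 (AT5G24780), VSP2 (AT5G24770), the vegetative storage protein-like gene AT5G44020, CORI3 (AT4G23600), TAT3 (AT2G24850), NATA1 (AT2G39030), KTI1 (AT1G73260) and the FAD-linked oxidoreductase gene AT2G34810. The genes were picked by locus with their ratios on these same arrays known, so their differences from wild type are given as a description, without a test. All 8 were well above background in both the 4 TaSK5 and the 4 wild-type channels, none of their spots was saturated, and all 8 passed the filter on dim probes.

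TaSK5 is a GSK3/Shaggy-like kinase, and here it was expressed from the 35S promoter, which is active in most plant tissues. OX17 and OX7 were independent transformants of the T1 generation, in the Col-0 background, and the reference was untransformed wild-type Col-0. RNA came from rosette leaves of plants 3 weeks old that received no treatment. RNA of each transformant was hybridised against wild-type RNA on 2 two-colour arrays, with the dyes exchanged, Cy5 labelling the TaSK5 RNA on replicate 1 and the wild-type RNA on replicate 2. Since a transformant's arrays repeat 1 hybridisation, n = 2 transformants, each being 1 plant line. The labels do not say how many wild-type plants were used or whether the same wild-type RNA served both transformants, and any spread given is that between the 2 transformants.

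Jasmonate is a lipid-derived hormone of wounding and insect attack. Its isoleucine conjugate binds the receptor COI1, which leads to the destruction of JAZ repressors and frees MYC transcription factors to act on their target genes. Vegetative storage proteins, among them VSP2, are long-used markers of this MYC branch in leaves, while the defensin PDF1.2 marks a branch that also needs ethylene. Jasmonate outputs also include enzymes of amino acid metabolism and inhibitors of insect gut proteases.

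Between 86.4% and 95.9% of gene probes were well above background in the TaSK5 channels, against 88.9% to 96.0% in the wild-type channels, and precision is limited throughout by having only 4 arrays. Leaf markers were well above background in all 8 channels for 5 of 5 genes. Their summed signal was 152343 to 246781 in TaSK5 channels and 137469 to 221258 in wild-type channels. Spots of 3 of them were saturated, which caps these sums. All 7 flower markers were measured, 5 of them well above background in every TaSK5 channel and 7 in every wild-type channel, with summed signals of 966 to 1247 in TaSK5 and 1264 to 1947 in wild type. Of the 4 root markers, 3 were so in TaSK5 and 4 in wild type, with sums of 1312 to 1596 in TaSK5 and 1589 to 2017 in wild type. All 4 guard cell markers were well above background throughout, with sums of 1105 to 2288 in TaSK5 and 1812 to 2149 in wild type. No marker of these lists was below background in all 8 channels. The flower sums did not overlap between TaSK5 and wild type, but the flower genes did not move together. Their mean log2 ratios of TaSK5 over wild type ran from -1.13 for SEP1 to 0.12 for SEP2. SEP1 and SEP3 were lower on all 4 arrays, as were 12.2% of all genes measured on 4 arrays. No flower marker was higher on all 4. Of the other lists, the root markers SHR and SCR and the guard cell marker KAT1 were also lower on all 4, and no marker was higher on all 4. The part of these differences in the results that follow was not tested. In whole leaves, fewer cells of a type and less RNA per cell cannot be told apart.

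Each log2 ratio below is TaSK5 over wild type on 1 array, so a positive value means more transcript in the TaSK5 plant. Log2 signals are given per channel after normalisation, and each gene is set only against itself. Of the 8 genes, 6 were higher in TaSK5 plants on every usable array, and 5 of these were at least 2-fold higher on each. Among all 18854 genes kept, 12.5% were higher on every usable array and 0.26% were at least 2-fold higher on each, while 12.6% were lower on every usable array and none of the 8 was. In OX17, 6 of the 8 genes were at least 2-fold higher on both arrays (2.63% of all genes) and AT5G44020 was at least 2-fold lower on both (2.04% of all genes). In OX7, 5 genes were at least 2-fold higher on both arrays (0.492% of all genes). Because the choice of the 8 genes used this contrast, nothing is read from those shares. The median log2 ratio was 2.25 over the 8 genes and -0.01 over all genes kept.

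**Figure D1:**
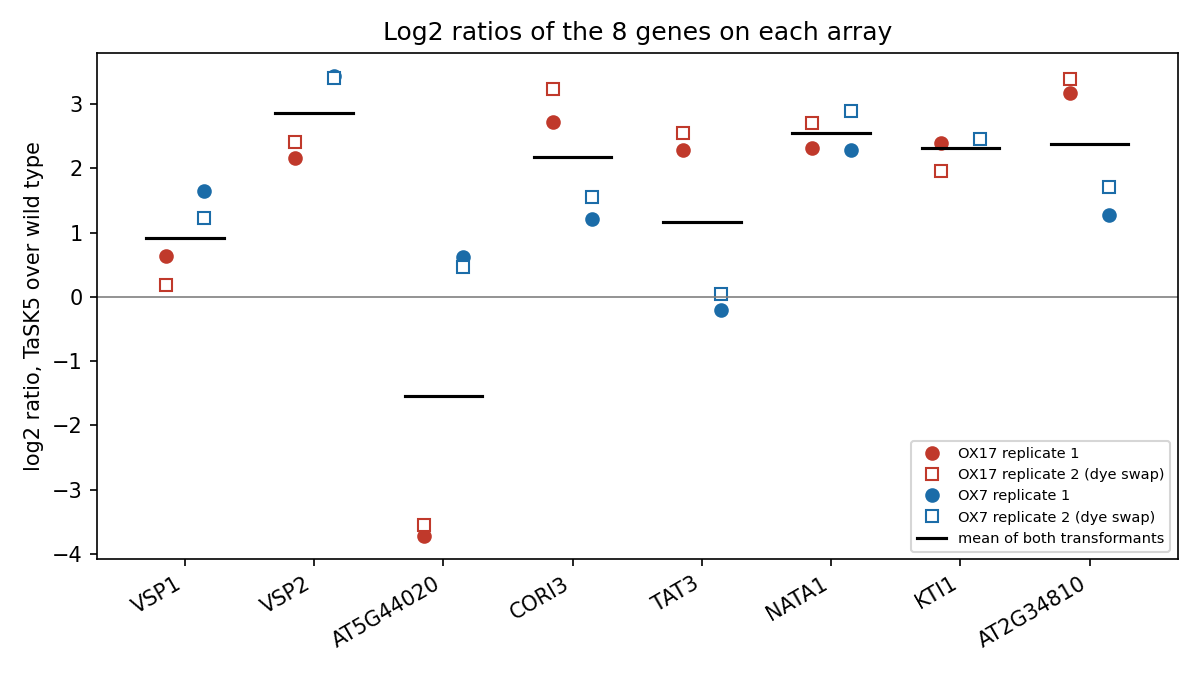
Log2 ratio of TaSK5 over wild type (vertical axis) for each of the 8 genes (horizontal axis) on each array, OX17 left and OX7 right of each gene, with filled circles for replicate 1, open squares for the dye swap and lines at the mean of both transformants. NATA1 and KTI1 have similar ratios in OX17 and OX7, AT5G44020 lies below 0 in OX17 at -3.72 and -3.55 and above 0 in OX7, and KTI1 has a single OX7 point.

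VSP1 and VSP2 encode vegetative storage proteins, leaf proteins of an acid phosphatase family, and lie next to each other in the genome. VSP2 had log2 signals of 10.21 and 10.001 in OX17 against 8.04 and 7.59 in the wild-type channels of the same arrays. In OX7 it had 12.13 and 11.79, against 8.69 and 8.38 in wild type. Every TaSK5 value of VSP2 was therefore above every wild-type value, and its log2 ratios were 2.17 and 2.41 in OX17 and 3.44 and 3.41 in OX7. These averages corresponded to a 4.89-fold difference in OX17 and a 10.7-fold difference in OX7, with a mean log2 ratio of 2.86 ± 0.80 (SD, n = 2 transformants).

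VSP1 was higher in TaSK5 plants by less. Its log2 signals were 7.89 and 8.07 in OX17, against 7.25 and 7.89 in wild type. In OX7 they were 9.0 and 8.42, against 7.35 and 7.20 in wild type. The log2 ratios of VSP1 were 0.64 and 0.18 in OX17 and 1.65 and 1.22 in OX7, with a mean of 0.92 ± 0.73 (SD, n = 2). All 4 ratios were positive, but the lower OX17 signal was level with the highest wild-type signal. The mean fold was 1.33 in OX17 and 2.70 in OX7, so both storage protein genes were further above wild type in OX7 than in OX17.

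AT5G44020, annotated on the array as vegetative storage protein-like, went the other way in OX17. Its log2 signals there were 8.83 and 8.96, against 12.55 and 12.51 in wild type. In OX7 they were 12.23 and 11.92, against 11.61 and 11.45 in wild type. The log2 ratios were -3.72 and -3.55 in OX17 and 0.63 and 0.47 in OX7. Normalised transcript was thus 12.4-fold lower than wild type in OX17 and 1.46-fold higher in OX7. The mean over both, -1.55 ± 2.96 (SD, n = 2), describes neither plant. Before normalisation the OX7 intensities were 2572 and 3821, against 3235 and 4448 in wild type. Its place above wild type in OX7 therefore depended on the normalisation. Of all genes measured on 4 arrays, 9.33% were likewise lower on both OX17 arrays and higher on both OX7 arrays.

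**Figure D2:**
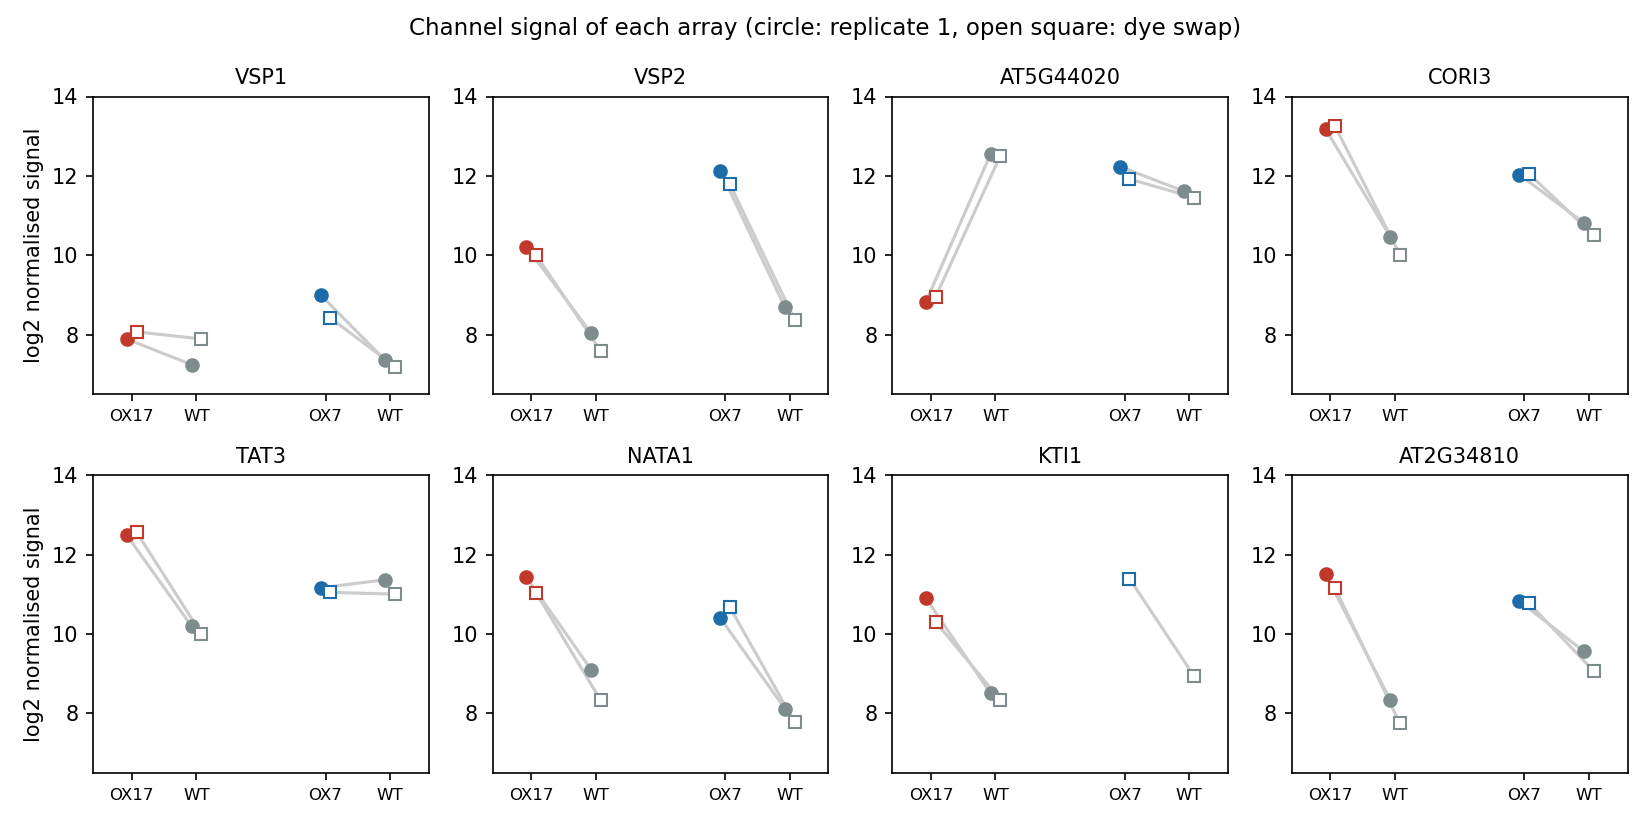
Log2 normalised signal (vertical axis) of the TaSK5 and wild-type channels of each array, 1 panel per gene, with OX17 and its wild type left of OX7 and its wild type, and lines joining the 2 channels of an array. AT5G44020 in OX17, at 8.83 and 8.96, is far below its wild-type channels at 12.55 and 12.51, whereas NATA1 is above wild type by a similar distance in both pairs; levels are not comparable between panels.

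CORI3, TAT3 and NATA1 act on amino acids. CORI3 encodes a cystine lyase of the aminotransferase family, known for its induction by coronatine, a bacterial mimic of the jasmonate conjugate. Its log2 signals were 13.18 and 13.25 in OX17, against 10.47 and 10.02 in wild type. In OX7 they were 12.03 and 12.05, against 10.81 and 10.50 in wild type. No TaSK5 signal overlapped the wild-type range, and the log2 ratios were 2.72 and 3.23 in OX17 and 1.22 and 1.55 in OX7. The mean was 2.18 ± 1.12 (SD, n = 2), made up of a 7.85-fold difference in OX17 and a 2.61-fold difference in OX7.

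TAT3 encodes a tyrosine aminotransferase that wounding and jasmonate induce. Its log2 signals were 12.48 and 12.56 in OX17, against 10.20 and 10.01 in wild type. In OX7 they were 11.16 and 11.05, against 11.37 and 11.004 in wild type, so the OX7 and wild-type ranges overlapped. The log2 ratios were 2.29 and 2.55 in OX17 and -0.21 and 0.05 in OX7, a 5.35-fold difference in OX17 and a ratio of 0.946 in OX7. The mean over both transformants was 1.17 ± 1.77 (SD, n = 2), a spread wider than the mean.

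NATA1, an N-acetyltransferase that makes the defence compound N-delta-acetylornithine, was nearly the same distance above wild type in both transformants. Its log2 signals were 11.43 and 11.04 in OX17, against 9.10 and 8.33 in wild type. In OX7 they were 10.40 and 10.67, against 8.12 and 7.78 in wild type. The log2 ratios were 2.32 and 2.71 in OX17 and 2.28 and 2.89 in OX7. Every TaSK5 signal was above every wild-type signal. The mean of 2.55 ± 0.05 (SD, n = 2) corresponded to 5.72-fold in OX17 and 6.0-fold in OX7, and this SD is narrower than the gap between the arrays of either transformant, which was 0.39 in OX17 and 0.60 in OX7.

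KTI1 encodes a Kunitz trypsin inhibitor, a protein that blocks serine proteases. Its log2 signals were 10.90 and 10.30 in OX17, against 8.50 and 8.34 in wild type. The spot on OX7 replicate 1 carried an outlier flag and was left out, and OX7 replicate 2 had 11.39, against 8.94 in wild type. The log2 ratios were 2.40 and 1.96 in OX17 and 2.45 on the single OX7 array, so all 3 usable arrays placed TaSK5 above wild type without overlap. The mean was 2.32 ± 0.20 (SD, n = 2, with OX7 resting on 1 array whose dye effect is not balanced), and the flagged spot, if kept, had a ratio of 2.73.

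AT2G34810 encodes an oxidoreductase of the berberine bridge enzyme-like family, which carries FAD. Its log2 signals were 11.51 and 11.15 in OX17, against 8.34 and 7.75 in wild type. In OX7 they were 10.83 and 10.77, against 9.56 and 9.07 in wild type. The log2 ratios were 3.17 and 3.40 in OX17 and 1.27 and 1.71 in OX7. TaSK5 and wild-type signals did not overlap, and the mean of 2.38 ± 1.27 (SD, n = 2) combined a 9.73-fold difference in OX17 with a 2.80-fold difference in OX7.

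Repeat hybridisations of these genes differed by 0.17 to 0.52 in OX17 and by 0.03 to 0.60 in OX7 on the log2 scale. The median gap over all genes kept was 0.21 in OX17 and 0.15 in OX7. Most of the genes lay above these medians in both transformants, and the largest gap was that of NATA1 in OX7, at 0.60.

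The 8 genes did not share 1 pattern across the transformants. Of the 7 measured on all 4 arrays, CORI3, TAT3 and AT2G34810 had both OX17 ratios above both OX7 ratios, by 1.59, 2.50 and 1.80 on the log2 scale. VSP1, VSP2 and AT5G44020 had both OX17 ratios below both OX7 ratios, with OX17 minus OX7 at -1.03, -1.13 and -4.18. NATA1 overlapped, at -0.07, and KTI1, on 3 arrays, stood at -0.28. All 6 differences without overlap were at least 2-fold, but VSP1 and VSP2 lay close to that limit. Of all genes measured on 4 arrays, 51.1% had ratios that did not overlap between OX17 and OX7, 25.6% with OX17 above and 25.5% with OX17 below, and 5.89% were also at least 2-fold apart. With 1 plant line on each side, no test of these differences was possible.

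These counts depended on the scale given to each array. With ratios scaled between arrays to an equal spread, 1 gene was at least 2-fold higher in OX17 than in OX7 and 5 were at least 2-fold lower, in place of 3 and 3. In 6 other alternatives 2 genes rather than 3 were at least 2-fold lower in OX17, since VSP1 (as far as -0.80) or VSP2 (as far as -0.87) came inside the limit. With the scaling between arrays, OX17 minus OX7 was 0.34 for CORI3, 0.44 for AT2G34810, -1.61 for NATA1, -1.43 for KTI1 and -2.95 for VSP2. The likeness of NATA1 and KTI1 between transformants therefore did not hold with that scaling.

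**Figure D3:**
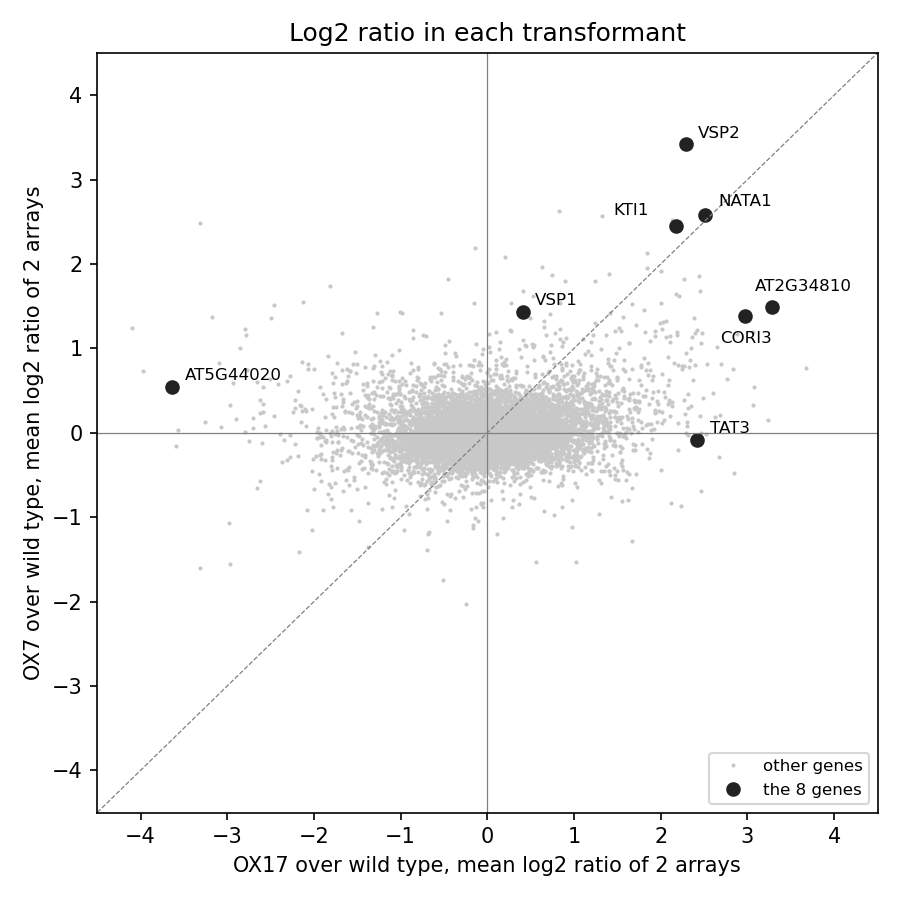
Mean log2 ratio of OX17 over wild type (horizontal axis) against that of OX7 over wild type (vertical axis) for all genes kept (grey) and the 8 genes (black), with the diagonal of equal ratios dashed. VSP2 and VSP1 lie above the diagonal, CORI3, AT2G34810 and TAT3 below it, NATA1 next to it at 2.52 and 2.59, and AT5G44020 at the far left.

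Signals of the separate channels show in which channel each of these differences between transformants lay. In the TaSK5 channels, 4 of the 7 genes with 4 arrays were at least 2-fold apart between the pairs without overlap, as were 5.81% of all genes. AT5G44020 was lower in the TaSK5 channels of the OX17 pair than in those of the OX7 pair, with a difference of -3.18, and its wild-type channels differed by 0.999, higher in the OX17 pair. TAT3 differed by 1.42 in the TaSK5 channels and by -1.08 in the wild-type channels. For AT2G34810 the wild-type channels differed more, by -1.27, than the TaSK5 channels, by 0.53. For that gene most of the difference in ratio between transformants therefore lay in the wild-type channels.

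CORI3 differed by 1.17 in the TaSK5 channels and -0.42 in the wild-type channels. VSP2 differed by -1.86 in the TaSK5 and -0.72 in the wild-type channels, both lower in the OX17 pair, so the distance of VSP2 from wild type differed less than its level did. NATA1 differed by 0.69 in the TaSK5 and 0.76 in the wild-type channels, higher in both channels of the OX17 pair, which left its ratio nearly equal. VSP1 differed by -0.73 in the TaSK5 channels and 0.29 in the wild-type channels.

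KTI1 could be compared on replicate 2 alone, with -1.09 in the TaSK5 channel and -0.60 in the wild-type channel. Wild-type signals of the 2 array pairs did not overlap for 6 of the 7 genes with 4 arrays, VSP1 being the exception, where 47.1% of all genes showed no overlap. They were at least 2-fold apart for TAT3 and AT2G34810, against 2.73% of all genes, and AT5G44020, at 0.999, lay just under that limit and passed it with quantile normalisation (1.03). Whether this reflects different wild-type plants or different hybridisations cannot be told apart.

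**Figure D4:**
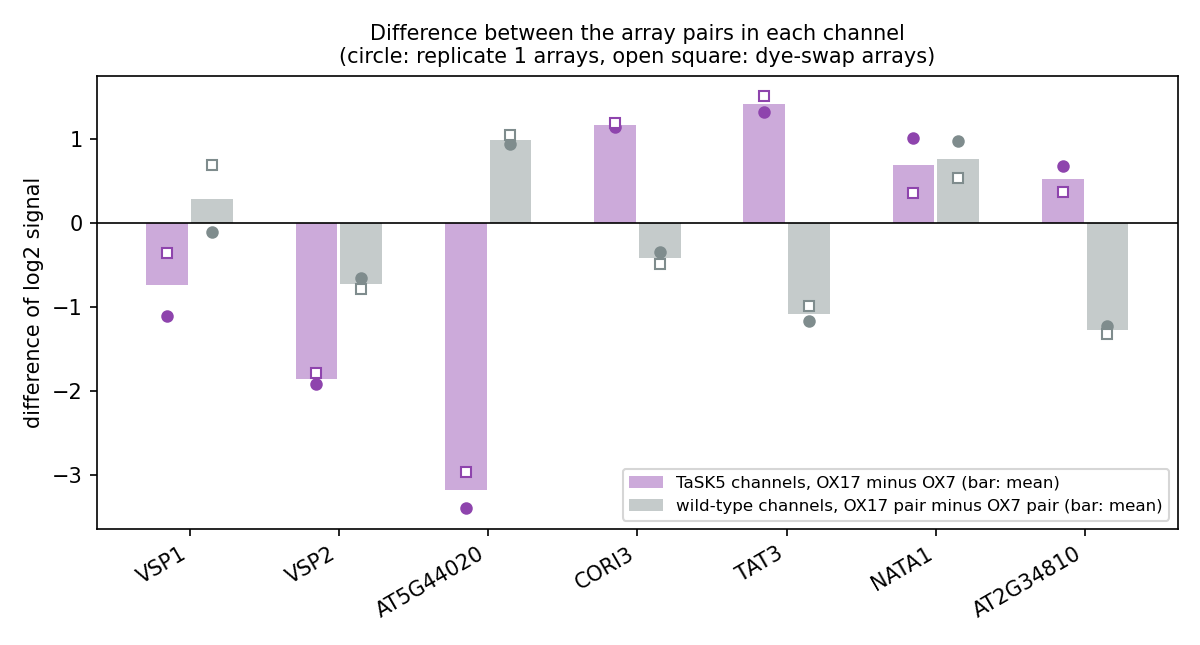
Difference in log2 signal between the OX17 and OX7 array pairs (OX17 pair minus OX7 pair) for the TaSK5 channels and the wild-type channels of the 7 genes measured on 4 arrays, with points for the replicate 1 and dye-swap arrays and bars for their mean. The TaSK5 difference of AT5G44020 is -3.18 against 0.999 in wild type, and that of AT2G34810 is 0.53 against -1.27 in wild type.

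The genes that make, sense and remove jasmonate were examined next. Of 52 genes in 5 lists, 4 had no probe and 1 was below the filter, leaving 47. None of the 47 passed limma's test with Benjamini-Hochberg adjustment over all genes, where 0% of the 18854 genes tested were called higher and 0% lower and the smallest adjusted p was 0.846. The test rested on 2 transformant means with 1 residual degree of freedom, so it could hardly call any gene. A lack of calls is therefore no sign that genes were unchanged. At an unadjusted p under 0.05 there were 13 of the 47 and 825 of the 18854. Of the 44 measured on 4 arrays, 23 were higher in TaSK5 plants on all 4 and 2 were lower. Among all genes measured on 4 arrays, 12.4% were higher on all 4 and 12.2% lower. The median log2 ratio of the 47 was 0.53. The lists were chosen with earlier results of these data known. Nothing is therefore read from these counts and shares, or from the counts per list below.

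Among 12 synthesis genes, 9 were higher on all 4 arrays and none was lower, with a median log2 ratio of 0.57. LOX2, the chloroplast lipoxygenase that starts the pathway, had ratios of 2.07 and 2.31 in OX17 and 1.17 and 1.22 in OX7, with 1 saturated spot. Its mean was 1.69 ± 0.71 (SD, n = 2). AOS, the allene oxide synthase that follows, averaged 1.21 ± 0.64. OPR3, the reductase of the peroxisomal part of the pathway, averaged 1.11 ± 0.96, with 1.86 and 1.73 in OX17 and 0.38 and 0.48 in OX7.

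Among 9 JAZ repressor genes, 8 were measured on 4 arrays. Of these 8, 7 were higher on all 4 and none was lower, and JAZ9 was higher on its 3 usable arrays. The median of the 9 was 0.82. JAZ1 had ratios of 1.33 and 1.61 in OX17 and 1.09 and 1.33 in OX7, a mean of 1.34 ± 0.18 (SD, n = 2). JAZ12 averaged 1.01 ± 0.59 and JAZ2 averaged 0.89 ± 0.30. These were the 3 largest mean ratios among the JAZ genes measured.

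Among 10 genes that remove or inactivate jasmonates, 9 were measured on 4 arrays. Of these 9, 6 were higher on all 4 and none was lower, and IAR3 was higher on its 3 usable arrays. The median of the 10 was 0.65, or 0.43 without OX17 replicate 1. JOX3 (AT3G55970) and JOX2 (AT5G05600) encode oxygenases that hydroxylate jasmonic acid. JOX3 had ratios of 2.05 and 1.96 in OX17 and 1.57 and 1.51 in OX7, a mean of 1.77 ± 0.33 (SD, n = 2). JOX2 averaged 1.31 ± 0.79, and ILL6, an amidohydrolase that splits the isoleucine conjugate, averaged 1.16 ± 0.42.

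The 8 genes for the receptor, the adaptor NINJA and bHLH transcription factors were mixed, with a median of 0.26. Of the 7 measured on 4 arrays, 1 was higher and 2 were lower on all 4. MYC4 was lower, with ratios of -1.72 and -1.53 in OX17 and -0.59 and -0.25 in OX7, a mean of -1.02 ± 0.85 (SD, n = 2). MYC2, the main activator of the VSP branch, had ratios of -0.01 and 0.04 in OX17 and 0.94 and 1.09 in OX7, so it was near wild type in OX17. JAM1, a bHLH repressor of the response, averaged 0.54 ± 0.36 on 3 usable arrays.

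In the list drawn up for the branch that needs ethylene, 0 of 8 genes were on 1 side on all 4 arrays. The median was 0.49, or 0.28 without OX17 replicate 2. Whether each of the 8 needs ethylene was not checked. The defensin gene PDF1.2A had ratios of 2.17 and 1.83 in OX17 and -0.23 and -0.65 in OX7. PR3, a basic chitinase, had 2.18 and 1.83 in OX17 and 0.23 and -0.01 in OX7. PDF1.2C (AT5G44430) had 0.52 and 1.82 in OX17 and 0.02 and -0.04 in OX7, and since PDF1.2 copies are near-identical their probes may share signal. All 3 had both OX17 ratios above both OX7 ratios, as did 25.6% of all genes measured on 4 arrays. That order was not particular to this branch. It was also seen for TAT3 and CORI3 and for LOX2, OPR3 and JOX3 of the other lists, but not for VSP1 and VSP2.

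**Figure D5:**
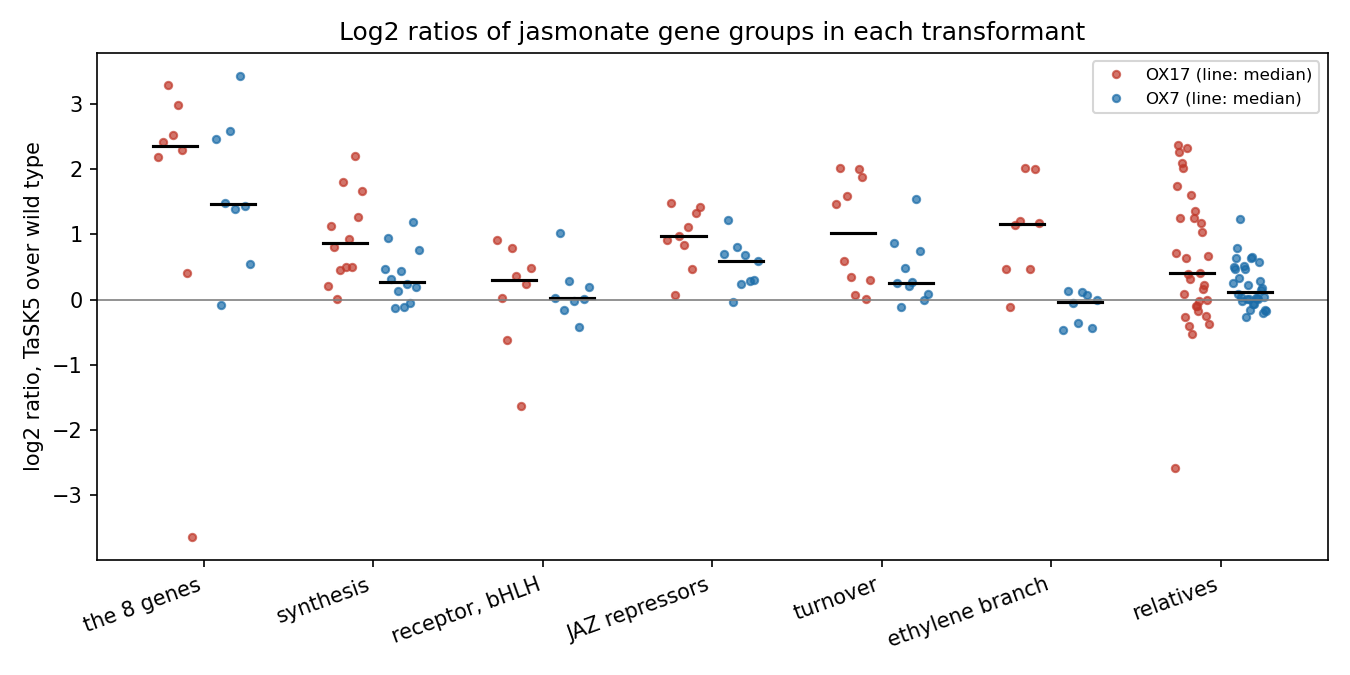
Mean log2 ratio over wild type of each of the 8 genes, of the genes in the jasmonate lists and of the relatives, OX17 left and OX7 right in each group, with lines at the medians. Medians were 0.86 in OX17 and 0.27 in OX7 for synthesis, 0.98 in OX17 and 0.59 in OX7 for JAZ repressors, 1.03 in OX17 and 0.26 in OX7 for turnover, and 1.15 in OX17 and -0.03 in OX7 for the branch that needs ethylene.

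Relatives of the 8 genes were compared to see how far the differences extended over each family. Of 38 relatives, 1 had no probe and 5 were below the filter. None of the 32 kept passed limma's test, with the limit given above for a lack of calls. At an unadjusted p under 0.05 there were 7 of the 32 and 825 of all 18854 genes. On all 4 arrays 15 of the 32 were higher and 3 were lower, and the median log2 ratio was 0.23. Of all genes measured on 4 arrays, 12.4% were higher on all 4 and 12.2% lower. The relatives were also listed with earlier results known, so nothing is read from their counts, here or in the next paragraph. Only AT1G30700, a berberine bridge enzyme-like gene, was at least 2-fold higher on all 4 arrays, as were 0.249% of all genes, and none of the 32 was at least 2-fold lower on all 4, as were 0.0325% of all genes. Its ratios were 2.14 and 1.89 in OX17 and 1.24 and 1.22 in OX7, a mean of 1.62 ± 0.55 (SD, n = 2).

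That family held 17 genes kept beside AT2G34810, of which 10 averaged at least 2-fold above wild type in OX17 and 1 in OX7, as did 3.3% of all genes kept in OX17 and 0.621% in OX7. Among them were 5 genes numbered in a row, AT1G26380 to AT1G26420, whose mean ratios ran between 1.25 and 2.37 in OX17 and between 0.08 and 0.79 in OX7. AT2G34790, the gene next to AT2G34810, had ratios of -0.51 and -0.31 in OX17 and -0.13 and 0.13 in OX7.

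AT1G04040, an acid phosphatase gene of the storage protein class that was singled out after its values were seen, followed AT5G44020. Its ratios were -2.64 and -2.53 in OX17 and 0.16 and 0.34 in OX7. The other 4 relatives of this class had mean ratios between -0.08 and 0.25. Among them AT5G51260 had ratios of 0.63 and 0.70 in OX17 and -0.16 and -0.16 in OX7, so its mean describes neither plant. Cross-hybridisation between relatives was not tested, since probe sequences were not used here.

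Genome neighbours were looked at by position. AT4G23590, the aminotransferase-like gene beside CORI3, had ratios of 1.44 and 1.26 in OX17 and 0.80 and 0.51 in OX7, a mean of 1.00 ± 0.49 (SD, n = 2). NATA2, the acetyltransferase gene beside NATA1, had 0.22 and 0.42 in OX17 and 0.25 and 0.19 in OX7. Among unrelated neighbours, the mean ratios were 0.05 for AT5G44010 and -0.07 for CESA4 beside AT5G44020, 0.01 for AGL61 and 0.02 for AT2G24860 beside TAT3, and -0.12 for GER1 beside KTI1. The other neighbour of KTI1, the carboxypeptidase gene scpl6, had ratios of -0.69 and -0.36 in OX17 and 0.35 and 0.14 in OX7. AT4G23610, beside CORI3, had 0.19 and 0.50 in OX17 and -0.07 and 0.08 in OX7, and AT5G24760, beside VSP2, averaged 0.37.

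Other genes were ranked by how close their ratios lay to the median profile of the 8 genes, which was 2.30 and 2.48 in OX17 and 1.27 and 1.63 in OX7. Likeness was the Euclidean distance over the 4 arrays, among 18432 genes. The closest was DHAR1, a dehydroascorbate reductase, at a distance of 0.400, followed by the NAC transcription factor gene RD26 at 0.403 and the beta-glucosidase gene PYK10 at 0.411. JAL23, a jacalin-related lectin gene, lay at 0.424 and NSP1, a nitrile specifier gene, at 0.455. DHAR1 had ratios of 2.31 and 2.53 in OX17 and 0.88 and 1.56 in OX7. The profile is a median over genes that were chosen on these ratios and did not share 1 pattern. A small distance to it is therefore no likeness to any single one of the 8 genes, and nothing is read from the ranking.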

How the data were processed

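Intensities of each spot and its local background in both channels were deposited by the authors as scanner files, read with Agilent Feature Extraction 7.5.1 per the file headers. The deposited files also give a log10 ratio of Cy5 over Cy3, and a deposited table holds the authors' processed log2 ratios, which ran as Cy5 over Cy3. The submitters' processing notes name limma, and its processing steps are otherwise not given in the sources used here. Against the loess ratios its columns had r of 0.992 to 0.998, with medians of -0.00543 and 0.00486 (OX17) and -0.00408 and 0.00358 (OX7).

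Here limma 3.58.1 in R 4.3.3 was used: normexp with an offset of 50, loess within each array (1075 control spots at weight 0), and ratios turned to TaSK5 over wild type. Outlier-flagged spots (60 to 173 per array) were left out. Genes were kept where well above background in all 4 TaSK5 or all 4 wild-type channels and measured in both transformants (18854 of 21500, of which 18439 on 4 arrays). Loess sets the typical ratio to 0 and the offset shrinks ratios of dim spots. Channel signals were Aquantile-normalised. The 2 transformant means were tested against 0 (lmFit, eBayes, two-sided, Benjamini-Hochberg, threshold 0.05).

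The 8 genes and the lists were chosen with earlier results of these data known. Named beside them were the 3 genes of largest absolute mean ratio per jasmonate list, relatives whose 4 arrays were all at least 2-fold in 1 direction, and the 5 nearest profiles. AT1G04040, AT5G51260 and the 5 genes AT1G26380 to AT1G26420 were chosen after their values were seen, and neighbours by position. Symbols came from the files and the RefSeq table of assembly TAIR10.1, which held 21191 of the 21500 loci, and JOX2, JOX3 and PDF1.2C were named by locus. Coordinates are left out because the files name no build, and sequences of probes, proteins and promoters were not analysed here. Results were recomputed with other background corrections, another normalisation or filter, other fits, and each array left out.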

Additional observations from a re-analysis of the deposited data

Results flagged for a closer look

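Of the genes named, AT5G51260 aside, 6 had both arrays of OX17 and both arrays of OX7 on opposite sides of wild type, whatever the size of the ratios. AT5G44020, the storage protein-like gene, was lower than wild type in OX17 and, after normalisation, higher in OX7, with OX17 minus OX7 at -4.18. AT1G04040, of the same phosphatase class, was lower in OX17 and higher in OX7, with a difference of -2.84 (from -2.64 and -2.53 in OX17 and 0.16 and 0.34 in OX7). PDF1.2A was higher in OX17 and lower in OX7, with a difference of 2.43. The other 3 were genome neighbours with smaller differences, -0.77 for scpl6, -0.24 for CESA4 and 0.16 for AT2G24860. Those of CESA4 and AT2G24860 were about the size of the median gap between repeat arrays, 0.21 in OX17 and 0.15 in OX7. With 1 plant line on each side the differences were not tested, and the cause was not tested. Of all genes measured on 4 arrays, 9.33% were lower on both OX17 arrays and higher on both OX7 arrays. AT5G51260, of the phosphatase class, had 0.63 and 0.70 in OX17 and -0.16 and -0.16 in OX7. The share with this opposite order, also that of PDF1.2A and AT2G24860, was not counted, and nothing is read from the count of 6.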

How the results depend on the processing

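The median log2 ratio of the 8 genes stayed between 2.08 and 2.36 over 14 alternatives, and 4 to 5 of them were at least 2-fold higher on every usable array. VSP1 had wild-type intensities below the wild-type median of each array. Its mean of 0.92 ranged between 0.76 (no background correction) and 1.35 (the log ratios in the scanner files). List medians ranged between 0.46 and 0.68 for synthesis, 0.13 (median centring) and 0.28 for receptor and bHLH factors, 0.70 and 0.96 for JAZ repressors, 0.43 and 1.04 (well above background in all channels) for turnover, 0.28 and 0.58 for the ethylene branch, and 0.15 and 0.30 for relatives. Without OX7 replicate 2, KTI1 had no value. With the 4 arrays counted as independent, limma called 66 genes higher and 13 lower, with 4 jasmonate list genes (JOX3, JAZ1, LOX3 and JAZ5) and 1 relative (AT1G30700) among them, but repeat hybridisations are no replicates of plants. Replicate numbers give the dye orientation, not a pairing of plants. Same-numbered arrays deviated together from their transformant mean (r = 0.561 across 18439 genes, which are not independent), and with the number as a replicate block over the 4 arrays 1 gene was called higher and 0 lower. That gene, NATA1, is one of the 8 chosen on these ratios, so the call is no test of it. Leaving out each array called 0 genes. Scaling between arrays gave 1 gene at least 2-fold higher in OX17 than in OX7 and 5 lower, against 3 and 3. Quantile normalisation moved the OX17 minus OX7 difference of CORI3 to 1.13 in the TaSK5 channels and -0.55 in the wild-type channels. The difference of NATA1, -0.07, changed sign with median centring (0.10) and ranged between -0.37 and 0.23 with each array left out, including 0.23 without OX7 replicate 2 and 0.12 without OX17 replicate 1. Its mean ranged between 2.37 and 2.85. The cause was not tested. A comparison of protein identity and of promoter motifs was planned and not run.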
